A study of Mus musculus with 4 samples.

Results

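Rest and the genes of the corepressor complexes it recruits were followed in the limb and brain of mouse embryos from which Rest had been conditionally deleted. The probes were chosen by the gene name in the scanner files, for Rest, the CoREST genes Rcor1, Rcor2 and Rcor3, the Sin3 scaffolds Sin3a and Sin3b, the histone deacetylases Hdac1 and Hdac2, the G9a methyltransferase Ehmt2 and the BRG1 ATPase Smarca4. Of the 41174 probes of the array, 20 carried 1 of these names and they covered 9 of the 10 genes. No probe carried the name Hdac1.

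The study compared 4 groups of 1 array each: Rest conditional knockout (CKO) limb, wild type (WT) limb, CKO brain and WT brain. All embryos were at E13.5 on a background of 129 and C57BL/6. Rest-floxed mice carried Cre alleles inducible by doxycycline, and the labels record doxycycline from E8.5 to E13.5 for all 4 samples, WT included. The promoter that drives Cre, the floxed part of Rest, the alleles that WT embryos carried and the number of embryos behind an RNA sample are not given in the sources used here.

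REST, the product of Rest, is a zinc-finger protein that binds the RE1 element near many neuronal genes and represses them outside neurons. Its amino-terminal domain recruits SIN3 scaffolds with the deacetylases HDAC1 and HDAC2. Its carboxy-terminal zinc finger recruits a CoREST protein, which joins HDAC1 or HDAC2 to the demethylase LSD1. The methyltransferase G9a and the chromatin remodeller BRG1 act with these complexes, and REST itself declines as neurons differentiate.

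All values are log2 signals minus the array's 75th percentile, so 0 is that percentile, and differences are CKO minus WT or brain minus limb. Of the 43379 non-control spots, 68.6% were well above background in CKO limb, 62.7% in WT limb, 70.7% in CKO brain and 64.5% in WT brain. The lowest such signal was -5.76 in CKO limb, -4.95 in WT limb, -6.19 in CKO brain and -5.36 in WT brain. Both measures thus differed between CKO and WT arrays. With 1 array per group, a difference between arrays and one of genotype cannot be told apart. The tissue labels were checked with marker lists. The median pan-neuronal marker had a WT brain minus WT limb difference of 6.51 log2, and the median limb mesenchyme marker differed by -5.04. The median was 5.77 over 6 brain regional and 4.11 over 8 neural progenitor markers. Of these, Otx2, Neurod6, Sox2 and Pax6 were not well above background on either limb array. Not all of them separated the tissues so, as Emx2 differed by 0.06, Nes by 0.52 and Vim by -0.56. Tbx5, Tbx4, Hoxd13 and Hoxa13 were not well above background on either brain array, and Lmx1b was so on the CKO brain array alone. The 6 limb mesenchyme markers compared in brain had a median CKO minus WT difference of 0.39. They ran from -0.16 for Pitx1 to 1.27 for Twist1, with Prrx1 at 1.02. Cartilage markers had a median CKO minus WT difference of 3.44 in brain over 10 genes, with a summed signal of 16.4 in CKO against 6.48 in WT, in units of the 75th percentile. All 4 inner ear markers measured there also passed 2-fold, with more signal in CKO brain. Red cell markers had a median difference of -1.16 in limb over 7 genes, with a summed signal of 197.5 in CKO against 443.6 in WT. That sum is mainly Hba-a1, at 7.58 in CKO limb and 8.75 in WT limb, where the next brightest, Alas2, was at 3.29. The list was not uniform, as 4 genes differed by -1.16 to -1.79 in limb but Epor by 1.47, Klf1 by 0.59 and Hemgn by 0.02. Epor also differed by 1.39 in brain. The part of these shifts in the results on Rest and its partners was not tested.

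The probes that carry these results are 60 bases long. Coordinates are on mm9, as in the scanner files, and all sequences are printed 5′ to 3′ in lower case, with no part marked. Both Rest probes shown had an open first reading frame over their whole length and gave the deepest differences. The others are the 4 probes whose mapped span is longer than the probe itself, so their letters join stretches that lie apart in the genome.
Rest first probe, chr5:77709928-77709987, plus strand: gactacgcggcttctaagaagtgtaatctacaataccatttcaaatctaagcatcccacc
Rest second probe, chr5:77711857-77711916, plus strand: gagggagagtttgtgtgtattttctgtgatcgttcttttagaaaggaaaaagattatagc
Rcor1 first probe, chr12:112347115-112348043, plus strand: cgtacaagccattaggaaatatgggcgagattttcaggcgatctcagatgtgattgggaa
Rcor3 first probe, chr1:193925035-193940207, minus strand: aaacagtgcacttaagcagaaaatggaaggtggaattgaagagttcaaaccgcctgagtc
Hdac2 first probe, chr10:36713455-36713589, plus strand: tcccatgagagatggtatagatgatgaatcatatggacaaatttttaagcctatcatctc
Smarca4 second probe, chr9:21445519-21446917, plus strand: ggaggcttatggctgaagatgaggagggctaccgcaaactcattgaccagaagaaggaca
Probes of a gene are numbered in the direction of its strand. The GC content of the 20 member probes ranged from 35.0% to 55.0% with a median of 41.7%, against a median of 40.0% over all probes of the array.

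**Figure D1:**
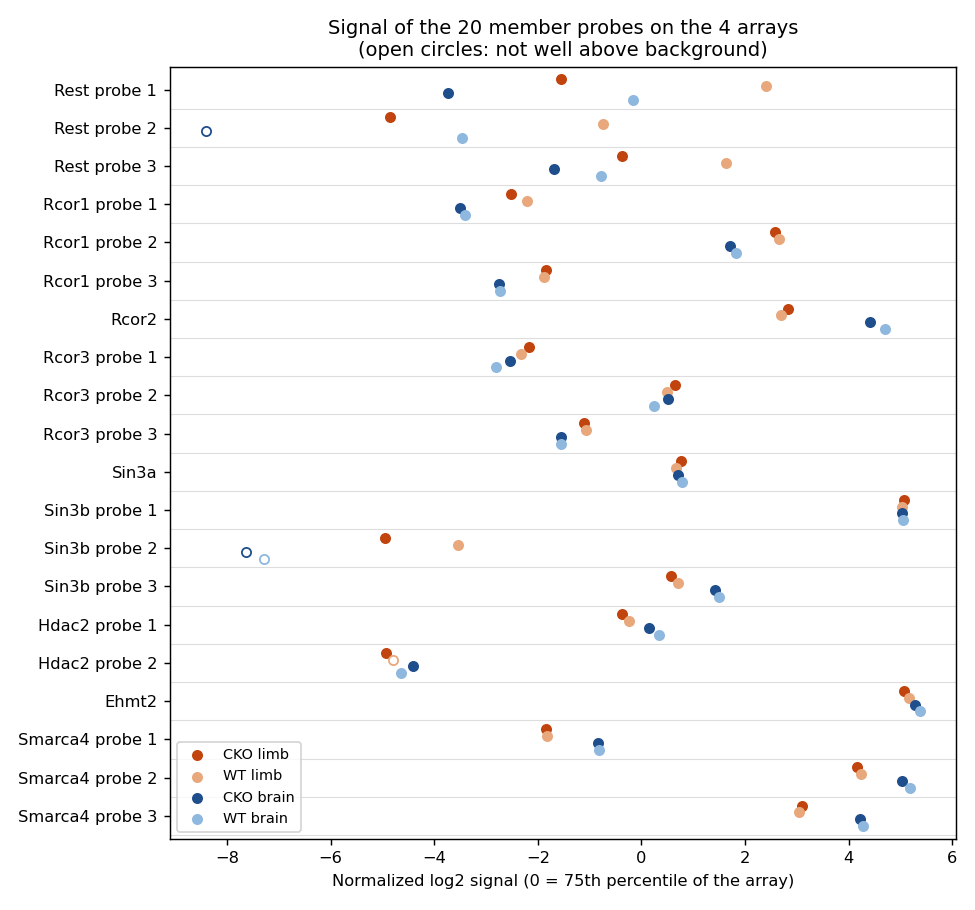
Normalized log2 signal (horizontal axis, 0 is the 75th percentile of the array) of each member probe (rows, numbered along the gene's strand) on the CKO limb, WT limb, CKO brain and WT brain arrays, 1 point an array, with open circles for spots not well above background. Rest points are spread over several log2 units and lie lowest in CKO brain, whereas the CKO and WT points of a tissue lie close together for nearly all partner probes; levels of different probes are not comparable.

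Rest had the deepest differences of the 9 genes, with less signal in CKO at each of 3 probes, whether in limb or in brain. It was also lower in brain than in limb in embryos of either genotype. Its first probe stood at -1.56 in CKO limb, against 2.41 in WT limb, and at -3.73 in CKO brain, against -0.16 in WT brain. That is a difference of -3.97 log2 in limb and -3.57 in brain, so 6.38% of the WT signal was left in CKO limb and 8.40% in CKO brain. The technical SD of such a difference, taken from probes of like brightness printed 10 times on each array, was 0.074 in limb and 0.086 in brain. It covers the spots alone, not labelling or embryos. With normexp background correction the brain difference of the first probe was -2.83.

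The second Rest probe was at -4.85 in CKO limb, against -0.75 in WT limb, a difference of -4.10. In CKO brain its signal was not well above background, against -3.47 in WT brain. The second probe was thus at least 6.60-fold lower in CKO brain. The difference is a bound, set by the lowest signal well above background on the CKO brain array. With normexp the second probe differed by -2.72 in limb and by a bound of -1.38 in brain, and with the dim signal taken as measured the brain difference was -4.95.

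The third Rest probe, at chr5:77715162-77715221 and annotated to an Ensembl transcript of Rest, kept more signal in CKO. It was at -0.37 in CKO limb, against 1.64 in WT limb, and at -1.69 in CKO brain, against -0.78 in WT brain. The differences were -2.01 in limb and -0.91 in brain, so 24.8% of the WT signal remained in CKO limb and 53.3% in CKO brain. The third probe starts 5234 bases after the first, and the second starts 1929 bases after it. At these settings both upstream probes had at most 15.1% of the WT signal in CKO in either tissue, a limit that normexp raises, and the third had the most left in each. Because the labels do not give the deleted part, it is not known which of these probes lie inside it.

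**Figure D2:**
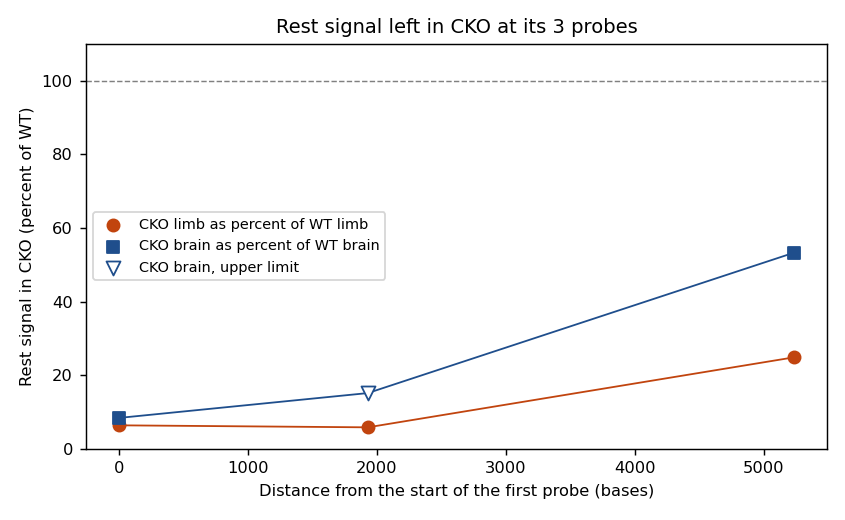
Rest signal in CKO as a percentage of WT of the same tissue (vertical axis) at the 3 Rest probes, placed by distance in bases from the start of the first probe (horizontal axis), with circles for limb, squares for brain and an open triangle for an upper limit. The first probe had 6.38% left in CKO limb and 8.40% in CKO brain, and the third had 24.8% and 53.3%, with 1 array per group and no error over embryos.

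The 3 Rest probes ranked 22nd, 18th and 139th from the lowest of 28233 probes compared in limb. In brain they ranked 48th, 97th (by its bound) and 365th of 29025 probes. All 3 were at least 2-fold lower in limb and 2 of 3 in brain, beside 1.95% of all probes in limb and 1.15% in brain. The first and second were at least 2-fold lower in both tissues, as were 0.0751% of the probes compared in both.

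Among embryos of the same genotype, Rest signal in brain was below that in limb. The first probe differed by -2.17 between CKO brain and CKO limb and by -2.57 between WT brain and WT limb. The second differed by at least -1.34 in CKO and by -2.72 in WT, where normexp gave -2.07, and the third by -1.32 in CKO and -2.42 in WT. In bulk tissue, fewer cells that express a gene and less RNA per cell cannot be told apart. A limma fit over the 4 arrays, with genotype as a block and Benjamini-Hochberg adjustment over 23688 probes, gave a brain minus limb coefficient of -2.37 ± 0.13 (SE) for the first probe, at an adjusted p of 0.00587. For the third it was -1.87 ± 0.34, at an adjusted limma p of 0.0288. Without the genotype block these calls were lost, with adjusted p = 0.334 and 0.109, and without a filter on dim probes that of the third probe was 0.0739.

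By contrast, no probe of a corepressor partner reached a 2-fold difference between CKO and WT brain, and 1 of 17 did so in limb. Of all probes compared, 1.95% were at least 2-fold lower and 2.25% higher in limb, and 1.15% each way in brain. The partner counts are thus near the background. Of the partner probes, 16 of 17 lay under 1.5-fold in limb, among them 1 Hdac2 probe dim in WT limb that had no usable bound, and all 16 compared did so in brain. The median partner difference was -0.01 in limb and -0.07 in brain, beside -0.02 and -0.01 over all probes compared. In all, 4 of 20 member probes were at least 2-fold lower in limb and 2 of 19 in brain, and 0 were higher by that much in either, beside 2.25% of all probes in limb and 1.15% in brain.

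**Figure D3:**
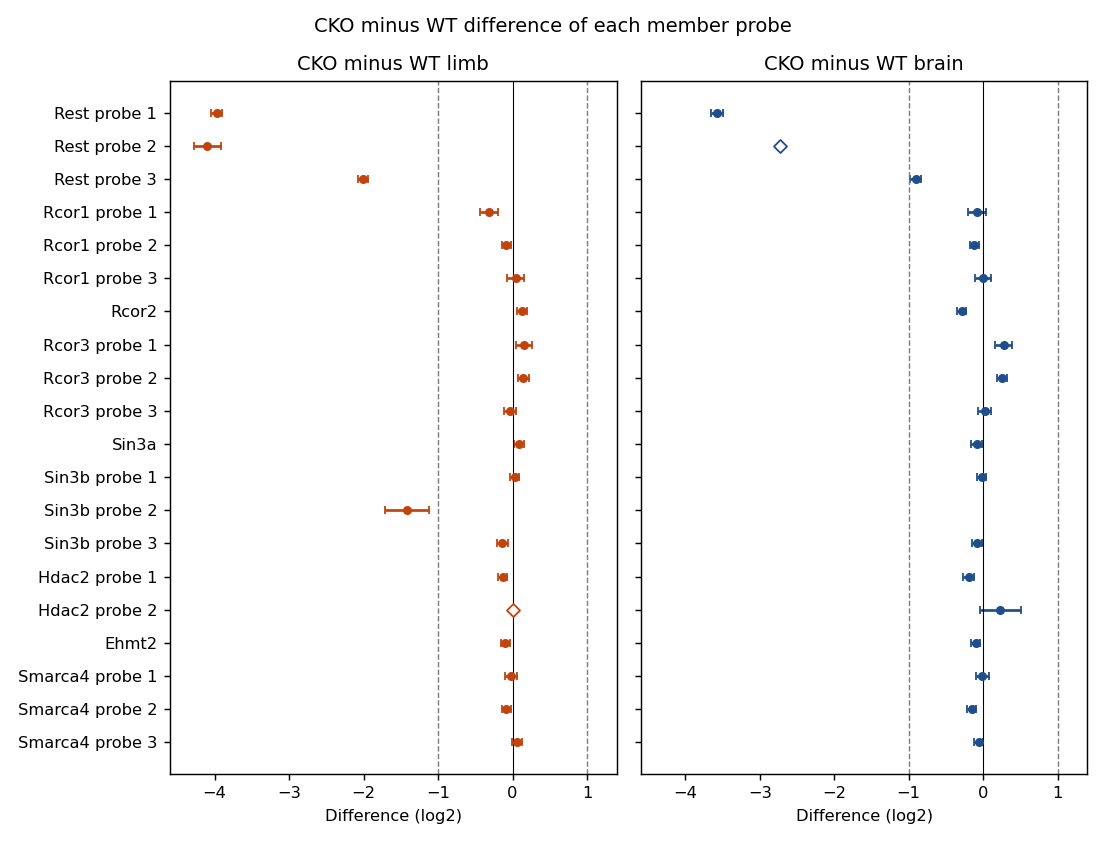
CKO minus WT difference in log2 (horizontal axes) of each member probe in limb (left) and brain (right), with bars of 1 technical SD of a single spot's difference, open diamonds for bounds and dashed lines at 2-fold. Rest probes lie between -0.91 and -4.10 and partner probes between -0.32 and 0.28, apart from the second Sin3b probe in limb at -1.42.

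CoREST proteins hold LSD1 on the nucleosome and bridge it to REST. Rcor1, which encodes CoREST itself, had 3 probes that gave like results. Its second probe, the brightest of them, was at 2.58 in CKO limb, against 2.67 in WT limb, and at 1.70 in CKO brain, against 1.82 in WT brain. The CKO minus WT differences of its 3 probes ran from -0.32 to 0.04 in limb and from -0.12 to -0.01 in brain. The value of -0.32 was that of the first probe, which spans 929 bases of the genome, beside a technical SD of 0.12. All 3 Rcor1 probes were lower in brain than in limb, by -0.98, -0.88 and -0.91 between the CKO tissues and by -1.21, -0.84 and -0.85 between the WT tissues. The limma coefficients of tissue were -1.10 ± 0.09, -0.86 ± 0.06 and -0.88 ± 0.06 (SE), each with an adjusted p of at most 0.00817.

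Rcor2, the CoREST paralogue known for its abundance in neural progenitors, ran the other way between tissues. Its single probe, at chr19:7349618-7349677, was at 4.41 in CKO brain and 4.70 in WT brain, against 2.82 in CKO limb and 2.70 in WT limb. The brain minus limb difference of Rcor2 was 1.59 in CKO and 1.99 in WT. The limma tissue coefficient was 1.79 ± 0.14 (SE, adjusted p = 0.00754). Between genotypes, Rcor2 differed by 0.12 in limb and by -0.29 in brain, beside technical SDs of 0.066 and 0.060. The value of -0.29 was the lowest partner difference in brain. Neural progenitor markers had a median CKO minus WT difference of -0.15 in brain over 8 genes, and brain regional markers of -0.33 over 6 genes. Their part in the Rcor2 value was not tested.

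Rcor3, the third CoREST paralogue, was measured by 3 probes with smaller tissue differences. The second probe was at 0.64 in CKO limb, against 0.50 in WT limb, and at 0.50 in CKO brain, against 0.25 in WT brain. The first probe, which spans 15173 bases of the genome, differed by 0.15 in limb and 0.28 in brain. The second differed by 0.14 and 0.25, whereas the third differed by -0.03 and 0.02. Thus 2 of the 3 Rcor3 probes were slightly higher in CKO in both tissues, by at most 1.21-fold, and the third did not follow them. Brain was below limb by -0.43 ± 0.07 at the first probe and by -0.46 ± 0.06 at the third (limma, SE), with adjusted p-values of 0.0216 and 0.0143. At the second, with -0.19 ± 0.06, the limma adjusted p was 0.0887.

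SIN3 proteins are scaffolds that carry the deacetylases to the amino terminus of REST. Sin3a had 1 probe, at 0.76 in CKO limb, against 0.67 in WT limb, and at 0.70 in CKO brain, against 0.79 in WT brain. Its 4 values lay within 0.12 of each other, and the tissue coefficient of 0.03 ± 0.08 (SE, limma adjusted p = 0.743) was smaller than its error.

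Sin3b had 3 probes that disagreed. The first was at 5.07 in CKO limb, against 5.04 in WT limb, and at 5.03 in CKO brain, against 5.04 in WT brain. The third was higher in brain, by 0.85 between the CKO tissues and 0.80 between the WT tissues, with a limma coefficient of 0.82 ± 0.06 (SE, adjusted p = 0.00680). Each of the 3 probes is annotated to a different sequence record, and the second was dim. It was at -4.95 in CKO limb, against -3.54 in WT limb, and was not well above background in either brain sample. Its difference of -1.42 in limb, 2.67-fold lower in CKO, was the only partner difference past 2-fold, and the other Sin3b probes differed by 0.03 and -0.14. With normexp it was -0.70, under 2-fold, and the WT brain minus WT limb bound of -1.82 was -0.87, also under 2-fold.

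HDAC1 and HDAC2 are the catalytic deacetylases shared by the SIN3 and CoREST complexes. The first Hdac2 probe was at -0.37 in CKO limb, against -0.24 in WT limb, and at 0.14 in CKO brain, against 0.34 in WT brain. It was higher in brain than in limb, by 0.55 ± 0.06 in the limma fit (SE, adjusted p = 0.0115), and CKO and WT differed by -0.13 in limb and -0.20 in brain. The second Hdac2 probe was dim, at -4.41 in CKO brain and -4.64 in WT brain, and not well above background in WT limb.

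A probe outside the chosen set stood for a predicted transcript that the files describe as similar to the deacetylase HD1, named LOC100046039, on chromosome 4. It was chosen after its values were seen and was not counted among the members. It was at 3.96 in CKO limb, against 3.87 in WT limb, and at 3.23 in both CKO and WT brain. Its tissue coefficient was -0.68 ± 0.06 (SE, limma adjusted p = 0.00887), lower in brain.

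G9a, the product of Ehmt2, places mono- and dimethyl marks on lysine 9 of histone H3. Its probe, at chr17:35050902-35050960, was at 5.07 in CKO limb, against 5.17 in WT limb, and at 5.29 in CKO brain, against 5.38 in WT brain. Ehmt2 differed by -0.10 between CKO and WT in each tissue. Brain exceeded limb by 0.21 ± 0.05 (SE), which missed the threshold at a limma adjusted p of 0.0551. That p was 0.0361 with median scaling, 0.0322 with normexp and 0.0132 with an intensity trend.

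BRG1, the ATPase encoded by Smarca4, drives the BAF remodelling complex and helps REST stay on chromatin. The third probe was at 4.23 in CKO brain and 4.29 in WT brain, against 3.11 in CKO limb and 3.05 in WT limb. The second was at 5.03 in CKO brain and 5.19 in WT brain, against 4.17 in CKO limb and 4.25 in WT limb. All 3 probes were higher in brain, with limma coefficients of 1.01 ± 0.05, 0.91 ± 0.06 and 1.18 ± 0.07 (SE) in probe order and adjusted p-values from 0.00571 to 0.00649. The CKO minus WT differences of the 3 probes lay between -0.08 and 0.06 in limb and between -0.16 and -0.01 in brain.

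**Figure D4:**
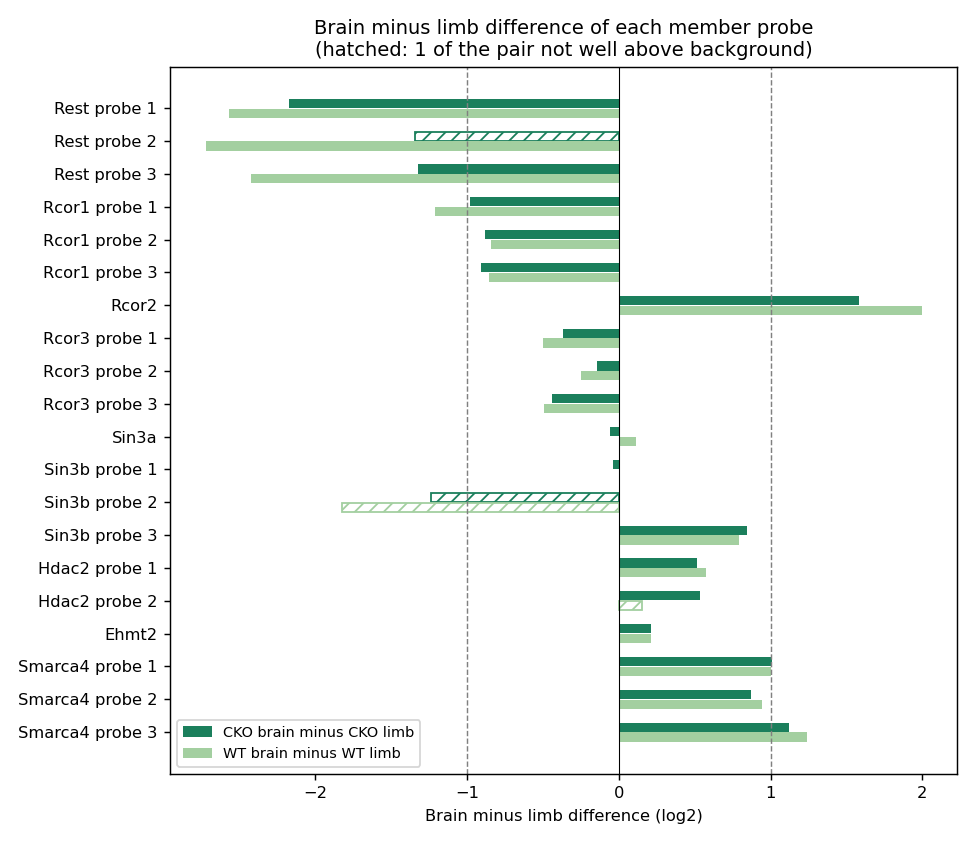
Brain minus limb difference in log2 (horizontal axis) of each member probe in CKO (dark bars) and in WT (light bars), hatched where either array had no signal well above background, with dashed lines at 2-fold. Rest and Rcor1 bars point to limb and Rcor2 and Smarca4 bars to brain in both genotypes, and the Rcor2 bars end at 1.59 in CKO and 1.99 in WT.

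Over both genotypes, 13 of the 17 member probes that entered the limma fit were called between the tissues, 6 higher and 7 lower in brain. This was beside 66.8% of all 23688 probes fitted, 32.1% higher and 34.7% lower, so the share of members is near the background. Of the 20 member probes, 3 stood at least 2-fold above WT limb in WT brain and 5 at least 2-fold below it, beside 15.6% and 17.7% of all probes. Between the CKO tissues 3 stood above and 4 below, beside 14.8% and 16.2%. The 3 higher probes were those of Rcor2 and, for Smarca4, the first and the third. The 5 lower ones in WT were the 3 Rest probes, the first Rcor1 probe and, as a bound, the second Sin3b probe.

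The limma fit of genotype over both tissues, with tissue as a block, called 0 of 23688 probes after Benjamini-Hochberg adjustment, whereas 1634, 6.90%, had an unadjusted p under 0.05. The 2 fitted Rest probes were among these, with coefficients of -3.77 ± 0.13 and -1.46 ± 0.34 (SE) at an adjusted p of 0.635 each, and none of the 15 fitted partner probes was. The fit has 1 residual degree of freedom, and a difference in effect between limb and brain adds to its error. Whether the Rest difference itself differed between tissues could not be tested with 1 array per group.

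The wider complexes were followed with 6 lists of 60 further genes, each gene taken at its brightest probe. In CKO against WT limb, 2 of the 60 were at least 2-fold higher and 0 lower, beside 2.49% and 2.16% of all genes. In brain 0 of 60 passed 2-fold either way, beside 2.59% of all genes. Their median difference was -0.04 in limb and -0.06 in brain, beside -0.02 and -0.01 over all genes. In the genotype fit 0 of 59 were called by limma, and 1 had an unadjusted p under 0.05, beside 6.59% of all genes.

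Among the partners of LSD1 and CoREST, tissue calls outnumbered genotype calls. The same held over the whole array, where limma called 0 of 15629 genes by genotype. Of the 9 LSD1 and CoREST partners, 7 were called higher and 1 lower in brain by limma, beside 67.3% of all genes called either way, 32.5% higher and 34.8% lower. The LSD1 gene Kdm1a was at 3.70 in CKO brain and 3.74 in WT brain, against 2.66 in CKO limb and 2.60 in WT limb. Ctbp1, a corepressor found with CoREST, differed by 0.07 between CKO and WT limb and by -0.06 in brain. Of 15 genes of the Sin3 complex and class I deacetylases, 4 were called higher and 4 lower in brain. The histone-binding subunit Rbbp4 was at 5.18 in CKO limb, against 5.21 in WT limb, and at 5.12 in CKO brain, against 5.23 in WT brain. Its dimmest probe differed by -0.52 in limb and -0.18 in brain. Sap30l, a paralogue of the Sin3 subunit Sap30, differed by -0.27 in limb and -0.25 in brain.

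Among 7 partners of G9a, 3 were called higher and 1 lower in brain. At their brightest probes no CKO minus WT difference exceeded 0.23 in size in either tissue, whereas another Cdyl probe differed by 0.25 in brain. The heterochromatin proteins Cbx1 and Cbx3 differed by -0.07 and -0.03 in limb and by -0.08 and -0.09 in brain. The dimmest Cbx3 probe differed by -0.68 in limb and -0.065 in brain. Among 15 BAF subunits, 9 were called higher and 2 lower in brain. The counts of both lists stand beside 32.5% of all genes called higher and 34.8% called lower. The core subunits Smarcc1 and Smarce1 differed by 0.01 and 0.23 between CKO and WT limb and by -0.09 and 0.03 in brain. Their second probes differed by -0.14 and -0.002 in limb and by -0.08 and -0.14 in brain.

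The 2 related genes past 2-fold in limb were Srrm4 and Actl6b, each with more signal in brain than in limb. Srrm4 encodes a neural splicing factor that acts on the Rest transcript itself, and its brightest probe was at -0.75 in CKO limb, against -3.12 in WT limb, and at 1.71 in CKO brain, against 1.84 in WT brain. It was thus 5.18-fold higher in CKO limb and differed by -0.13 in brain. A second Srrm4 probe was at least 20.3-fold higher in CKO limb and not well above background in WT limb, and the last was dim on both limb arrays. In brain the second probe differed by -0.15 and the last by -0.87, at -3.44 in CKO against -2.57 in WT. Among the other 8 regulators and partners of REST, CKO minus WT differences at the brightest probes lay between -0.25 and 0.13 in both tissues. Outside that range, another Prickle1 probe differed by 0.42 in brain and another Usp7 probe by -0.38 in limb. Another probe of Ctdsp2 and another of Ctdspl each differed by 0.16 in brain.

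Actl6b encodes the BAF53b subunit of the BAF complex of neurons. It was singled out after its values were seen, because WT limb had no signal well above background at either of its 2 probes. The brighter probe was at -2.22 in CKO limb, at least 6.62-fold above WT limb, and the other was at -2.67, at least 4.86-fold above WT limb. In brain the brighter probe was at 0.35 in CKO, against 0.09 in WT. Among the other neuronal BAF genes, Dpf1 was at -0.44 in CKO limb, against 0.02 in WT limb, and Smarcd3 at 1.94, against 1.71. Pan-neuronal markers had a median CKO minus WT difference of 1.35 in limb over 10 genes, with a summed signal of 9.81 in CKO against 3.76 in WT, and the list includes targets of REST. Their part in the Srrm4 and Actl6b values was not tested.

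**Figure D5:**
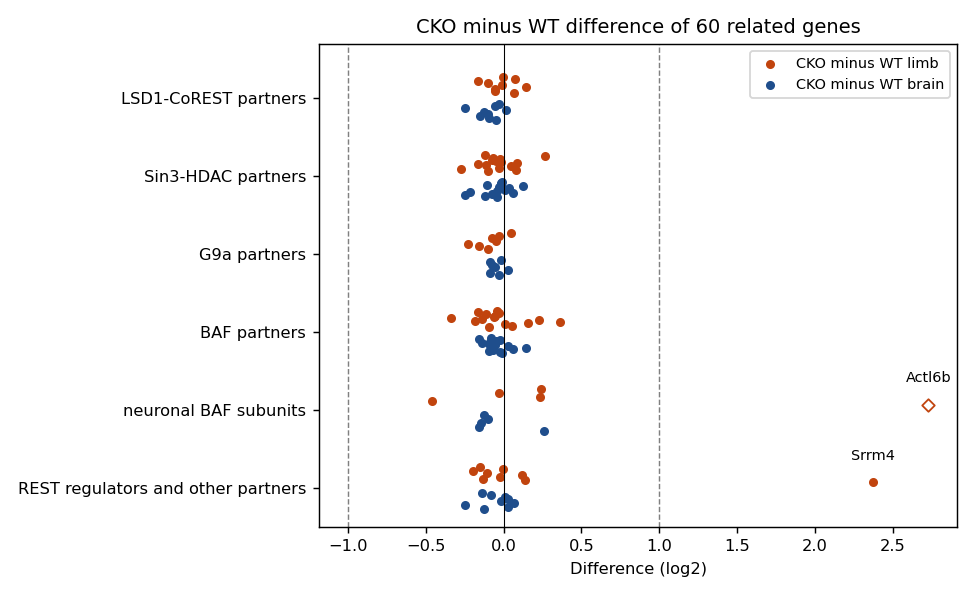
CKO minus WT difference in log2 (horizontal axis) of 60 related genes at their brightest probes, by list (rows), in limb and brain, with an open diamond for a bound and dashed lines at 2-fold. Srrm4 at 2.37 and Actl6b at 2.73 or more, both in limb, lie outside the band in which the other genes fall.

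The promoters of these genes were searched for the left part of the RE1 element, TCAGCACC, and its right part, GGACAGC, on both strands, in RefSeq sequences of GRCm38.p6 that hold 300 bases around each gene's start. Of the members, 8 had a promoter in the table, as did 51 of the 60 related genes. Of all 32851 promoters, 1.65% held the left part, 6.56% the right part and 0.131% both. These shares count promoters, of which the 27025 genes of the table can have several. No member promoter held the left part and 1, that of Rcor2, held the right part. Of the 51 related genes, 2 held the left part, Actl6b and Prickle1, and 11 held the right part. Srrm4 was not among the genes with either part. Actl6b alone among the related genes had both, each on the minus strand, with 9 bases between them, 22 and 38 bases into the transcript. Its promoter is shown because it holds both matches, which stand in capitals, and Actl6b was above background in CKO limb and not in WT limb. A match is a description of letters and not a binding site, and its part in the Actl6b values was not tested.
Actl6b promoter, chr5:137553296-137553595, plus strand: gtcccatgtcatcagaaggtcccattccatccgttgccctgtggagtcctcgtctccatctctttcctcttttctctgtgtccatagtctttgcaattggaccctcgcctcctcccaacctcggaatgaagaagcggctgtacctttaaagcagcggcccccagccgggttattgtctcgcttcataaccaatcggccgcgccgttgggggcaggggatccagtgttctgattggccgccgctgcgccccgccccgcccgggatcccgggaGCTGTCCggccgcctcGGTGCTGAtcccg

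Genes with the most similar pattern to Rest were sought by the Euclidean distance of log2 profiles over the 4 arrays, each centred on its own mean, among 15629 genes well above background throughout. For the third Rest probe the nearest were Olfr1394 at 0.344, Olfr1410 at 0.480 and Slc25a37, a mitochondrial iron importer of red cells, at 0.533. Slc25a37 was at 1.89 in CKO limb, against 3.36 in WT limb, and at 0.76 in CKO brain, against 1.39 in WT brain. For the first Rest probe the nearest gene, again Olfr1394, lay 2.62 away, so no gene had a closely similar profile. With 4 arrays such likeness is a description.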

How the data were processed

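Cy3-labelled cRNA of 4 samples was hybridised to 1-colour Agilent arrays. The submitters' processing notes name Agilent Feature Extraction 9.5.3.1 for the quantification of spots, and the authors deposited intensities on a linear scale. Per the file headers these intensities are background-subtracted and detrended within each array, with no normalization between arrays. Control spots and spots with outlier flags were left out, log2 intensities were centred on each array's 75th percentile, and the spots of a probe were averaged. Where either array had no signal well above background for a probe, the value given is a bound against the lowest signal well above background on that array, or the dim spot's own signal if higher. Differences within a tissue rest on 1 array per group and have no test, and calls there mean at least 2-fold. limma 3.58.1 (R 4.3.3) fitted tissue and genotype over the probes that were unsaturated and well above background throughout, with a threshold of 0.05 after Benjamini-Hochberg adjustment. The fit was also run on simulated data, with the same residual spread for all probes and the same genotype effect in both tissues. As these data need not share those settings, that run does not show how many real differences the fit would call here. P-values and SEs, for tissue as for genotype, rest on 1 residual degree of freedom and on a variance that limma draws from all fitted probes. They cover these 4 samples alone and do not measure the spread among embryos. Technical SDs are medians over the 25 probes nearest in brightness among 245 printed 10 times. The number of arrays limits the precision. Genes of the lists were named through accession, symbol or synonym. Named genes were all members, up to 4 genes of each related list with at least 1.5-fold measured in a tissue, or else the 2 brightest. Members and lists were chosen with earlier results of these data known. Alternatives were normexp, quantile and median scaling, the series table, other filters, no block and an intensity trend. Calculations used Python 3.11.15, numpy 2.4.6 and pandas 2.3.3.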

Additional observations from a re-analysis of the deposited data

How the results depend on the processing

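No paired analysis was possible because each group had 1 array and the labels give no replicate numbers. Requiring signal well above background on all 4 arrays lowered the count of member probes at least 2-fold apart to 2 in limb and 1 in brain, since dim probes leave, and that of related genes in limb to 1. The mean of all probes of a gene also gave 1 related gene in limb, and the cause was not tested. Normexp left 5 member probes at least 2-fold apart between WT brain and WT limb, against 8, and the cause was not tested. Without a filter on dim probes, limma called 2 member probes by genotype and 5386 of 41164 probes, 78 of them higher in CKO, against 0 of 23688 with the filter. That fit includes the substitute values of spots below background. No call of a member reversed under the alternatives run. The other 42 of 48 recomputed counts and medians stayed within 1.5 times their value or 0.1 log2. Related-gene counts under scalings, normexp, the series table and other filters were added after seeing the data. Signal over background limits the second Rest, Sin3b and Hdac2 probes, each dim on at least 1 array.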
